A study of Mus musculus with 4 samples.

Results

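The 29 genes described here code for enzymes and membrane proteins of the lysosome: 8 cathepsins, 11 other hydrolases, 3 soluble helper proteins and 7 membrane proteins. They were chosen by gene symbol, and each symbol stands on exactly 1 of the 55382 Ensembl genes listed in the deposited tables. The study measured ribosome-protected mRNA fragments in mouse hearts on day 15 after birth. It compares 2 libraries of NAT10-FF hearts, whose genotype is labelled WT, with 2 libraries of NAT10-CKO hearts, labelled KO. NAT10 is an enzyme that acetylates cytidines in RNA. The labels name cardiomyocytes as the cell type, but the protocols describe about 100 mg of frozen heart tissue per sample, so RNA of every heart cell type could enter the libraries. Cycloheximide at 100 µg/mL held ribosomes in place in both groups. The sources used here do not give the meaning of FF, the promoter behind the deletion, the strain or the sex. The labels do not call the replicates separate animals, and the p-values below therefore reflect the scatter of 2 libraries per group, possibly a technical one.

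The lysosome is the acidic compartment in which cells break down material taken up from outside or delivered by autophagy. Its hydrolases are made at the endoplasmic reticulum, tagged with mannose 6-phosphate in the Golgi and carried to the lysosome, where a proton pump keeps the lumen acidic. Many of their genes respond to the transcription factors TFEB, TFE3 and MITF, which bind short E-box elements in lysosomal gene promoters. Heart muscle depends on this system: loss of the glycogen-digesting enzyme coded by Gaa causes Pompe disease, and loss of the membrane protein coded by Lamp2 causes Danon disease, both with cardiomyopathy. The cathepsins are also abundant in macrophages, and cathepsin K is well known from osteoclasts.

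The values used are the footprint level in FPKM (fragments scaled to gene length and to mapped fragments), the translation efficiency (TE, footprint level over RNA level) and the RNA level implied by dividing the first by the second. Differences are given as the log2 of KO over WT ± its standard error (n = 2 libraries per group), with p-values adjusted over all genes tested. All 29 genes passed the filters of the 3 comparisons, so none is missing below. Read depth is unknown, since FPKM keeps no read total. The summed FPKM of a library ran from 7.04e+06 to 8.73e+06 and was highest in KO replicate 2. Mitochondrial tRNA genes held 48.9% of it in KO replicate 2 and 55.3% to 57.0% in the other libraries. By library, 16425 to 16900 genes were above 0. The targeted gene, Nat10, read 77.3 and 73.9 FPKM in the WT libraries against 40.01 and 52.1 in the KO libraries (-0.71 ± 0.30, limma adjusted p = 0.295); both KO values were below both WT values, and the difference did not pass limma's test. Most genes read higher in KO: the median log2 change over all tested genes was 0.36 for footprints, 0.22 for RNA and 0.15 for TE. Median-ratio scaling of the libraries brought these medians to 0.03, 0.0043 and -0.00069. The median of all genes is therefore given beside that of the 29, while limma's p-values test each gene against 0. A gene that reads higher in KO can still lie below the median change of all genes.

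Lysosomal genes were well expressed in WT hearts. The highest footprint levels belonged to Psap, which codes for the precursor of the saposins, helper proteins of sphingolipid breakdown (1356 and 4381 FPKM), to the cysteine protease genes Ctsb (1404 and 1686 FPKM) and Ctsl (1108 and 1279 FPKM), and to Grn, the progranulin gene (902 and 1038 FPKM). At the other end stood Gusb, the gene of beta-glucuronidase (7.17 and 8.35 FPKM), and Neu1, that of the lysosomal sialidase (12.9 and 10.3 FPKM). Over all 4 libraries, WT and KO, the median lysosomal gene stood at the 86.4th to 88.4th percentile of tested genes for footprints. For RNA it stood at the 74.3rd to 79.5th percentile. Its TE stood at the 67.5th to 75.6th percentile over the same libraries, and 20 or 21 of the 29 genes lay above the library's median TE. Gla, which codes for alpha-galactosidase A, had the lowest implied RNA level of the 29 in WT (0.919 and 0.748 FPKM) and the highest TE (23.2 and 21.3). Ctsd, the gene of the aspartic protease cathepsin D, had the second highest RNA level (263 and 259 FPKM) and a TE of only 2.67 and 3.15. Gusb had the lowest TE (0.704 and 0.672). TE has the RNA level in its denominator, so the orders of TE and RNA are not independent.

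Some of these genes carry in their promoters an element already known from lysosomal genes. The choice of genes did not use it directly, but a high share in a lysosomal list is no independent result. RefSeq promoters of 300 bases (250 before the start site, 50 after, GRCm38.p6) were at hand for 25 of the 29 genes and were searched on both strands for the E-box core CACGTG, for the fuller form TCACGTG that contains it, and for the 10-base palindrome of the CLEAR element, which contains both. Of the 25, 8 (32%) held TCACGTG, against 1160 of 27025 genes (4.29%) in the whole promoter table and 724 of 10749 (6.74%) among genes tested for footprints, a background added after the motif counts had been seen. The shorter CACGTG was found in 10 of the 25 (40%), against 8.09% of all genes and 11.5% of tested genes. The palindrome stood in 1 promoter, that of Cln3 (4%, against 0.37% of all genes). The lines that follow show 1 stretch before the start site from each of these 8 promoters, in the order of their footprint change, with every TCACGTG or its reverse complement in capitals. They are shown because the element is the one that TFEB and its relatives are known to bind.
Gla, chrX:134601173-134601253, minus strand: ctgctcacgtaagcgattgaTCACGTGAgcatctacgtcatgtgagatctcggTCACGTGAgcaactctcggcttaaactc
Gaa, chr11:119267802-119267848, plus strand: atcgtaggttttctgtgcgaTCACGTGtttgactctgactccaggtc
Glb1, chr9:114401009-114401055, plus strand: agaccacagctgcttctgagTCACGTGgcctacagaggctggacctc
Ctsd, chr7:142387899-142387946, minus strand: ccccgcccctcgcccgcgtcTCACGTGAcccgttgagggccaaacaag
Mcoln1, chr8:3500427-3500500, plus strand: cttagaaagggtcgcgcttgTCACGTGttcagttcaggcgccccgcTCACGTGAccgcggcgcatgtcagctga
Ctsa, chr2:164833750-164833772, plus strand: gagcaaactgTCACGTGAtgcag
Lamp1, chr8:13159079-13159160, plus strand: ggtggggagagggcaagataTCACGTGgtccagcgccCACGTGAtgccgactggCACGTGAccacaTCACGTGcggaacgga
Cln3, chr7:126583341-126583368, minus strand: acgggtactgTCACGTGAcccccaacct
Lamp1, a major glycoprotein of the lysosomal membrane, held 4 copies between 61 and 15 bases before its start site. Mcoln1, the gene of the calcium channel TRPML1, held 2 at 71 and 45 bases, and Gla held 2 at 227 and 194 bases. A further copy in the Ctsd promoter (245 bases before the start) and one in that of Cln3 (149 bases) lie outside the stretches shown, as does a copy in the Ctsa promoter after the start site. The matches of Ctsa and Cln3 lie before inner start sites, 901 and 2581 bases from the gene's first one. A match of letters is a description and not a measured binding site.

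The element was also present in the other lysosomal lists. TCACGTG stood in 5 of 26 other hydrolases (19.2%), 3 of 21 other membrane proteins (14.3%), 4 of 17 proton pump subunits (23.5%), 5 of 14 mannose 6-phosphate sorting genes (35.7%), 6 of 22 regulators (27.3%) and 5 of 28 autophagy genes (17.9%). It stood in 1 of 10 fibroblast markers and in none of 16 macrophage or 13 cardiomyocyte markers. All of these lists, lysosomal or not, are too short to compare their shares. The genes with the element were not those with the larger footprint differences. The median log2 change was 0.25 for the 8 genes with TCACGTG (0.05 to 0.52) and 0.51 for the 17 without it (-0.92 to 1.84). The corresponding medians were 0.26 and 0.32 for RNA and -0.17 and 0.30 for TE. These are descriptions with no test.

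The footprint comparison asks how the ribosome footprints on lysosomal mRNAs differed in KO hearts. No lysosomal gene passed limma's test over the 15031 genes (0 of 29 at adjusted p below 0.05, against 0.379% of all tested genes, of which 0.253% were higher and 0.126% lower in KO). At an unadjusted p below 0.05 there were 4, all higher in KO (Ctsk, Cd63, Lipa and Npc2, or 13.8%, against 17.3% of all genes, 13.5% higher and 3.8% lower). The median log2 change of the 29 genes was 0.36, as it was over all genes, and 14 of the 29 lay above that median. Both KO libraries read above both WT libraries for 16 genes (55.2%, against 39.5% of all genes) and below them for 2, Smpd1 and Npc1 (6.9%, against 12.1%). All tested genes were not matched to the 29 for expression level or for evenness between replicates. The part of either in these shares and spreads was not tested. The median lysosomal gene differed 1.20-fold between the WT libraries and 1.27-fold between the KO libraries, against 1.34-fold and 1.42-fold for all genes. The log2 change was above 0 for 22 of the 29 (75.9%, against 71.1% of all genes). The quartiles of the 29 changes lay 0.57 apart, against 0.89 over all genes. After median-ratio scaling 14 of the 29 changes were above 0 and 15 below.

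**Figure D1:**
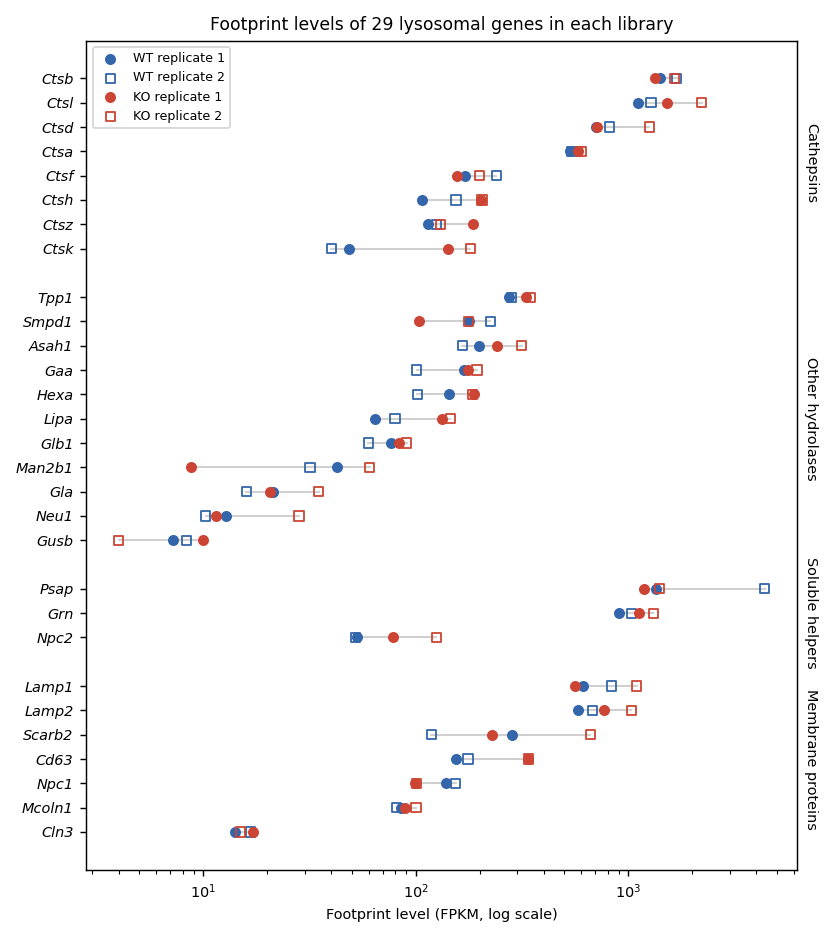
Footprint level in FPKM (log axis) of each of the 29 lysosomal genes, grouped by role and ordered by WT mean; each point is 1 library (blue WT, red KO, filled replicate 1, open replicate 2) and the grey line spans the 4 values. Ctsk, Cd63 and Lipa show a gap between the groups, while the Psap value of WT replicate 2 stands far to the right of the other 3.

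Among the cathepsins, Ctsk stood apart. Ctsk (ENSMUSG00000028111, chr3:95499210-95509387), a collagen-degrading cysteine protease, read 48.4 and 39.97 FPKM in the WT libraries against 142 and 180.4 in the KO libraries. Both KO libraries lay far above both WT libraries, a 3.58-fold higher level on the log2(FPKM + 1) scale that did not pass over all genes (1.84 ± 0.29, limma adjusted p = 0.096). It passed when small RNA genes and unnamed models were left out of the test (adjusted p = 0.025) and when only genes of at least 5 FPKM in every library were tested (adjusted p = 0.025). It did not pass without any one of the 4 libraries (log2 difference 1.67 to 2.01, adjusted p = 0.299 to 0.666). Its change ranked at the 96.5th percentile of all genes.

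The other cathepsins differed less between the groups. Ctsl, the cysteine protease cathepsin L, read 1108 and 1279 FPKM in the WT libraries against 1514 and 2213 in the KO libraries (0.62 ± 0.26, limma adjusted p = 0.298). Ctsh, an aminopeptidase, read 106 and 155 FPKM in the WT libraries against 202 and 205 in the KO libraries (0.66 ± 0.28, limma adjusted p = 0.294). Both genes had KO values above both WT values, by 1.54-fold and 1.58-fold. Ctsz, a carboxypeptidase, read 114 and 125 FPKM in the WT libraries against 185 and 131 in the KO libraries, again without overlap but with KO replicate 2 close to WT. Ctsa, the protective protein of sialidase and beta-galactosidase, read 530.3 and 538 FPKM in the WT libraries against 579 and 599 in the KO libraries, a narrow separation of 1.101-fold. Its log2 change (0.14) lay below the median of all genes, at the 36.3rd percentile, and turned negative after median-ratio scaling. The groups overlapped for Ctsb at 1404 and 1686 FPKM in the WT libraries against 1333 and 1648 in the KO libraries. They also overlapped for Ctsd at 702 and 817 FPKM in the WT libraries against 714 and 1258 in the KO libraries, where KO replicate 2 alone was high. Ctsf, a further cysteine protease, read 170.1 and 239.7 FPKM in the WT libraries against 156 and 199.7 in the KO libraries, also with overlap.

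Of the other hydrolases, Lipa had the largest difference in footprints. Lipa (ENSMUSG00000024781, chr19:34492316-34527474), the acid lipase that splits cholesteryl esters and triglycerides, read 64.3 and 79.7 FPKM in the WT libraries against 132 and 145 in the KO libraries. The KO libraries were 1.92-fold higher (0.94 ± 0.27, limma adjusted p = 0.207). Hexa, a subunit of beta-hexosaminidase, read 143 and 102 FPKM in the WT libraries against 188 and 185 in the KO libraries (0.63 ± 0.27, limma adjusted p = 0.305). Asah1, acid ceramidase, read 198 and 166 FPKM in the WT libraries against 242 and 315 in the KO libraries (0.61 ± 0.25, limma adjusted p = 0.297). In both, the KO values lay above the WT values without passing the test. Gaa, the acid alpha-glucosidase that digests glycogen, read 169 and 101 FPKM in the WT libraries against 176 and 194 in the KO libraries, with WT replicate 2 the lowest of the 4. Tpp1, a tripeptidyl peptidase, read 275 and 282 FPKM in the WT libraries against 330.3 and 346 in the KO libraries, and its groups were tight and narrowly apart. Glb1, beta-galactosidase, read 76.2 and 59.8 FPKM in the WT libraries against 83.4 and 90.5 in the KO libraries, likewise higher in both KO libraries.

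The remaining hydrolases gave either a lower level or no order. Smpd1, acid sphingomyelinase, read 177 and 224 FPKM in the WT libraries against 104 and 177 in the KO libraries (-0.55 ± 0.33, limma adjusted p = 0.423). Its KO replicate 2 lay only just below WT replicate 1, so that the separation rests on KO replicate 1: without it the log2 difference was -0.17. Man2b1, the lysosomal alpha-mannosidase, read 42.4 and 31.8 FPKM in the WT libraries against 8.797 and 60.7 in the KO libraries. Its KO libraries differed 6.91-fold from each other and stood on either side of WT, and the sign turned from -0.62 to 0.71 without KO replicate 1. Gla read 21.3 and 15.9 FPKM in the WT libraries against 20.6 and 34.9 in the KO libraries, Neu1 12.9 and 10.3 in the WT libraries against 11.5 and 28.2 in the KO libraries, and Gusb 7.17 and 8.35 in the WT libraries against 9.98 and 3.99 in the KO libraries. The groups overlapped for all 3, which are the weakest hydrolases of the set, and the KO replicates of Neu1 and Gusb differed by 2.46-fold and 2.499-fold.

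The soluble helper proteins split. Psap (ENSMUSG00000004207, chr10:60277628-60302600) read 1356 and 4381 FPKM in the WT libraries against 1180.2 and 1402 in the KO libraries. The 1.89-fold lower mean of KO rested on WT replicate 2 (-0.92 ± 0.54, limma adjusted p = 0.412): without that library the log2 difference was -0.08. Psap also weighed on the summed footprint level of the 29 genes, which came to 9552 and 13489 FPKM for the WT libraries against 10621 and 14195 for the KO libraries, or 8196 and 9109 against 9441 and 12792 without Psap. Npc2, the soluble cholesterol carrier of the lysosome, read 53.2 and 51.998 FPKM in the WT libraries against 77.8 and 125 in the KO libraries (0.90 ± 0.33, limma adjusted p = 0.264). Both KO values lay above a tight WT pair. Grn read 902 and 1038 FPKM in the WT libraries against 1125 and 1308 in the KO libraries, 1.25-fold higher and near the median change of all genes.

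Among the membrane proteins, Cd63 and Npc1 stood on opposite sides. Cd63 (ENSMUSG00000025351, chr10:128896231-128912822), a tetraspanin of late endosomes and lysosomes, read 154 and 176 FPKM in the WT libraries against 338 and 338 in the KO libraries. Both groups were tight, and KO was 2.05-fold higher without passing (1.03 ± 0.22, limma adjusted p = 0.154). Npc1 (ENSMUSG00000024413, chr18:12189694-12236506), the membrane protein that hands cholesterol out of the lysosome, read 139 and 154 FPKM in the WT libraries against 99.6 and 101 in the KO libraries and was 1.46-fold lower (-0.54 ± 0.24, limma adjusted p = 0.315). Its partner Npc2 thus read higher and Npc1 lower, neither past the threshold. Lamp2 read 583 and 676 FPKM in the WT libraries against 772 and 1032 in the KO libraries (0.51 ± 0.24, limma adjusted p = 0.339), while Lamp1 read 611 and 836 FPKM in the WT libraries against 561 and 1096 in the KO libraries with overlap. Scarb2, the receptor that carries glucocerebrosidase to the lysosome (LIMP-2), read 285 and 118 FPKM in the WT libraries against 229 and 662 in the KO libraries. Its replicates differed 2.41-fold in WT and 2.89-fold in KO, so its mean 2.11-fold higher level lay within the replicate spread. Mcoln1 read 85.5 and 81.2 FPKM in the WT libraries against 88.5 and 100.2 in the KO libraries, and Cln3, a lysosomal membrane protein mutated in Batten disease, read 14.2 and 16.7 FPKM in the WT libraries against 17.1 and 14.996 in the KO libraries. With Lamp1, these genes had the smallest differences of the membrane group, all below the median change of all genes.

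The RNA comparison asks how far these differences were already present in the RNA. The implied RNA level was more even between replicates than the footprint level: the median lysosomal gene differed 1.12-fold between the WT libraries and 1.195-fold between the KO libraries, against 1.20-fold and 1.27-fold for footprints. Again no lysosomal gene passed limma's test (0 of 29, against 5.73% of the 12529 genes tested, 4.2% higher and 1.53% lower). At an unadjusted p below 0.05 there were 8 (27.6%, against 28.3% of all genes). Of these, 6 were higher (Ctsd, Ctsz, Hexa, Gusb, Npc2 and Cd63, against 21.1% of all genes) and 2 lower (Ctsf and Npc1, against 7.17%). The groups did not overlap for 12 genes higher in KO (41.4%, against 44.2%) and 4 lower (13.8%, against 18.6%). The log2 change was above 0 for 20 genes (69%, against 64.6%). Its median was 0.18, against 0.22 over all genes, and 14 of the 29 were above 0 after median-ratio scaling. That scaling also evened the split of calls over all genes, from 526 higher and 192 lower to 327 and 309.

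**Figure D2:**
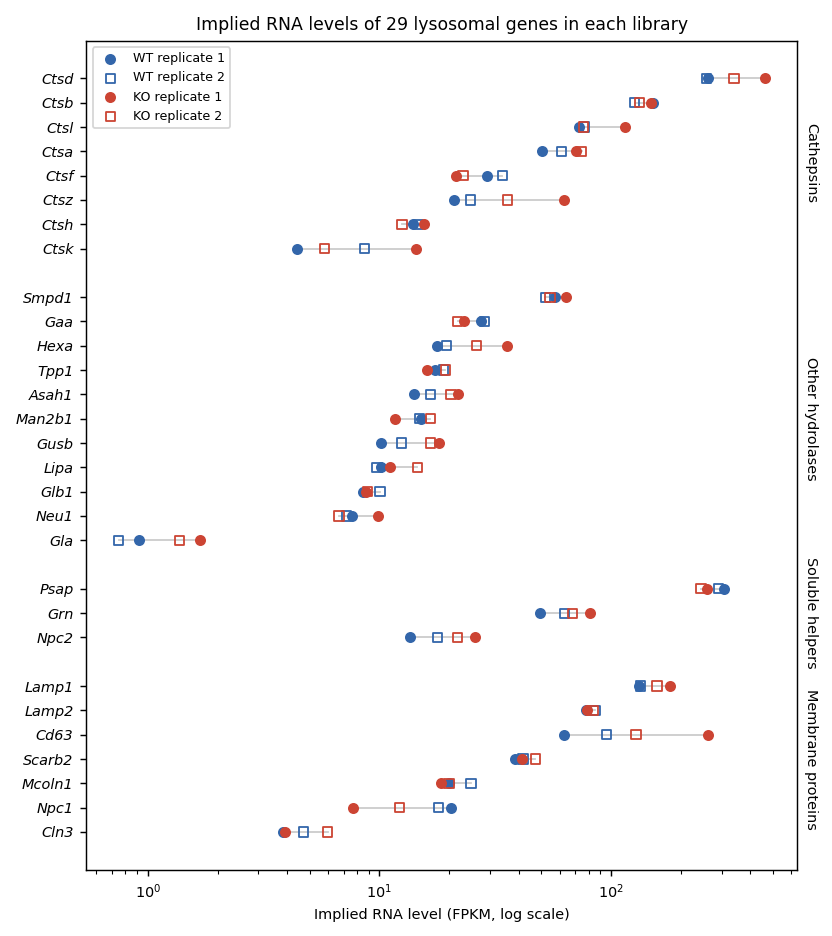
Implied RNA level in FPKM (log axis) of the 29 lysosomal genes in each library, drawn as in the plot of footprint levels. For the median gene the replicates of a group lie closer together than for footprints, though not for every gene. Cd63, Ctsz, Hexa and Ctsd have both KO values to the right of WT, and Npc1 has both to the left.

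The largest RNA differences were those of Cd63, Ctsz and Npc1. The RNA of Cd63 read 62.5 and 95.5 FPKM in the WT libraries against 262 and 128 in the KO libraries (1.25 ± 0.38, limma adjusted p = 0.099), with KO replicate 1 well above KO replicate 2. Ctsz read 20.98 and 24.8 FPKM in the WT libraries against 62.4 and 35.6 in the KO libraries (1.05 ± 0.30, limma adjusted p = 0.085), also highest in KO replicate 1. Npc1 read 20.3 and 18.03 FPKM in the WT libraries against 7.73 and 12.2 in the KO libraries and was 1.97-fold lower (-0.98 ± 0.28, limma adjusted p = 0.083). Each of the 3 kept its separation between the groups. Hexa read 17.8 and 19.5 FPKM in the WT libraries against 35.7 and 26.2 in the KO libraries (0.72 ± 0.23, limma adjusted p = 0.112), Ctsd 263 and 259 FPKM in the WT libraries against 461 and 339.6 in the KO libraries (0.60 ± 0.24, limma adjusted p = 0.167), and Npc2 13.6 and 17.7 FPKM in the WT libraries against 25.8 and 21.7 in the KO libraries (0.61 ± 0.24, limma adjusted p = 0.153). All 3 were higher in both KO libraries. Gusb read 10.2 and 12.4 FPKM in the WT libraries against 18.1 and 16.6 in the KO libraries (0.62 ± 0.22, limma adjusted p = 0.132), higher in RNA although its footprints were not.

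The RNA calls depended on which libraries entered. Leaving out KO replicate 2, limma called 6 lysosomal genes: Cd63 (log2 difference 1.76, adjusted p = 0.0071), Ctsz (1.45, adjusted p = 0.0053), Hexa (0.94, adjusted p = 0.016), Ctsd (0.82, adjusted p = 0.017) and Ctsl (0.62, adjusted p = 0.039) rose and Npc1 (-1.31, adjusted p = 0.0084) fell. Under that setting 2632 genes rose and 1110 fell in all, so calls were common. Without WT replicate 2, Cd63 alone was called (1.55, adjusted p = 0.027), and without WT replicate 1 or KO replicate 1 none was. Ctsk RNA did not separate the groups as its footprints did. It read 4.41 and 8.65 FPKM in the WT libraries against 14.4 and 5.79 in the KO libraries (0.56 ± 0.50, limma adjusted p = 0.485), and its log2 difference ran from -0.09 (leaving out KO replicate 1) to 1.22 (leaving out KO replicate 2). Ctsf read 29.2 and 33.9 FPKM in the WT libraries against 21.4 and 22.9 in the KO libraries (-0.51 ± 0.21, limma adjusted p = 0.166), and Gaa read 27.4 and 28.5 FPKM in the WT libraries against 23.3 and 21.8 in the KO libraries, both lower in both KO libraries. Psap RNA read 308 and 291 FPKM in the WT libraries against 259 and 244 in the KO libraries, so WT replicate 2, with its high footprint value, was not high in RNA. Lamp2 RNA read 77.7 and 85.2 FPKM in the WT libraries against 78.9 and 83.99 in the KO libraries (0.00 ± 0.20, limma adjusted p = 0.999).

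The other genes with separated RNA groups showed smaller differences or lower levels. Gla RNA was 1.83-fold higher at 1.68 and 1.37 FPKM in the KO libraries (0.87 ± 0.37, limma adjusted p = 0.185), from the lowest RNA level of the set. Asah1 read 14.1 and 16.6 FPKM in the WT libraries against 21.9 and 20.4 in the KO libraries, a 1.38-fold higher level. Grn read 49.3 and 62.9 FPKM in the WT libraries against 81.3 and 68.02 in the KO libraries, a 1.34-fold higher level. These genes were higher in both KO libraries in RNA, and for Asah1 and Grn in footprints as well. Lamp1 read 132 and 134 FPKM in the WT libraries against 180.5 and 158 in the KO libraries, Ctsa 50.5 and 60.9 FPKM in the WT libraries against 70.3 and 74.6 in the KO libraries, and Lipa 10.2 and 9.76 FPKM in the WT libraries against 11.1 and 14.6 in the KO libraries. Lipa RNA was 1.27-fold higher, against 1.92-fold for its footprints. The RNA groups overlapped for the remaining 13 genes, among them Scarb2 at 38.6 and 41.7 FPKM in the WT libraries against 41.2 and 47.2 in the KO libraries, whose wide spread in footprints was not seen in RNA.

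Footprint and RNA changes pointed the same way for 21 of the 29 genes, 17 higher and 4 lower (Ctsf, Man2b1, Psap and Npc1). In 5 genes footprints were higher and RNA lower (Ctsh, Tpp1, Glb1, Gaa and Mcoln1), and in 3 the reverse held (Ctsb, Gusb and Smpd1). Across the 29 genes the changes correlated at Pearson's r = 0.51 and Spearman's rho = 0.48, and across the 12529 genes at 0.55 and 0.48. These are descriptions: genes share their libraries and are not independent replicates.

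**Figure D3:**
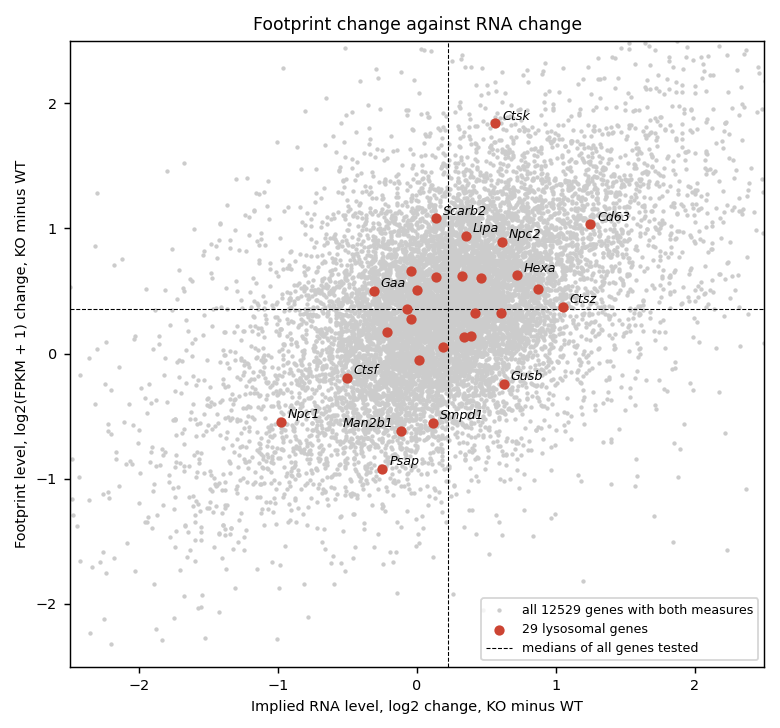
Log2 change of the footprint level (vertical axis, on the log2(FPKM + 1) scale) against that of the implied RNA level (horizontal axis), KO minus WT; grey points are the 12529 genes with both measures (246 lie outside the axes), red points the 29 lysosomal genes, and dashed lines the medians of all tested genes. The red points scatter around the crossing of the dashed lines, with Ctsk highest, Cd63 and Ctsz to the right and Npc1 to the left.

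The TE comparison asks whether ribosome occupancy per RNA changed. No gene at all passed limma's test for TE (0% of 12529 tested genes), and none of the 29 lysosomal genes had an unadjusted p below 0.05, against 6.06% of all genes (4.68% higher, 1.38% lower). The power of that test with 2 libraries per group is not known, so the absence of calls does not show an unchanged TE. The log2 change was above 0 for 15 genes (51.7%, against 59.5%). The median log2 change of the 29 was 0.14, against 0.15 over all genes. Without KO replicate 2 it was -0.23, against -0.03 over all genes, and without KO replicate 1 it was 0.37, against 0.33. The groups did not overlap for 8 genes higher in KO (27.6%, against 24%), namely Ctsf, Ctsh, Tpp1, Glb1, Gaa, Lipa, Lamp2 and Mcoln1. They did not overlap for 3 lower in KO (10.3%, against 12%), namely Ctsa, Ctsz and Gusb. The KO libraries differed from each other at least 2-fold for 11 of the 29 genes, and the WT libraries for 3.

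**Figure D4:**
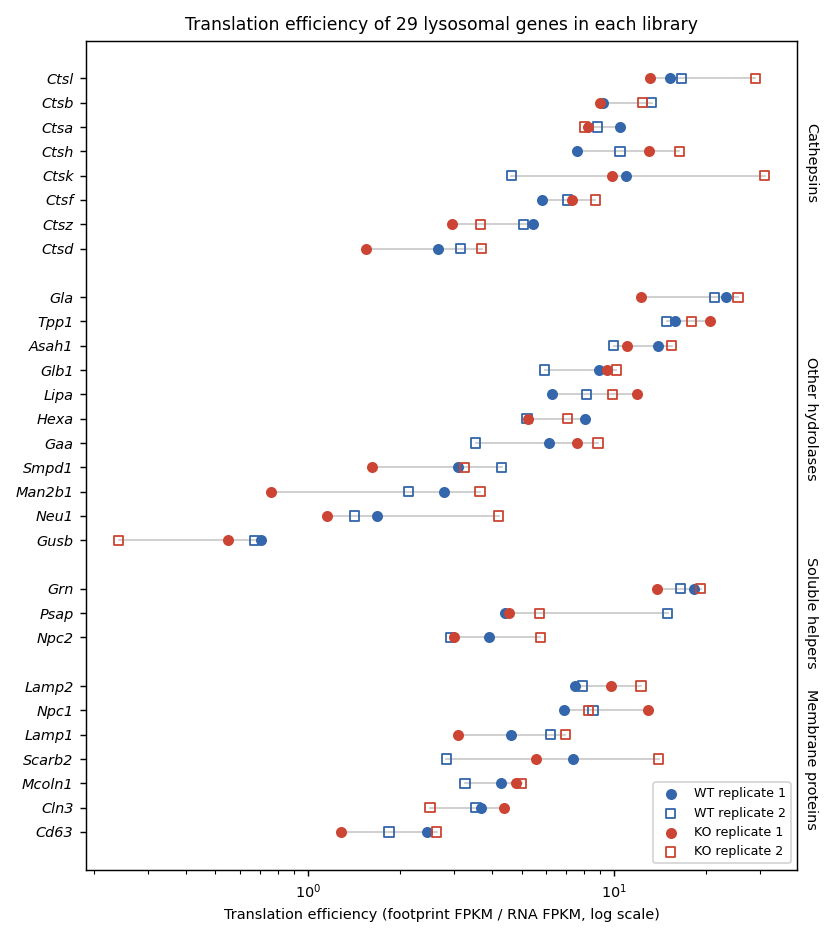
Translation efficiency (footprint FPKM over RNA FPKM, no unit, log axis) of the 29 lysosomal genes in each library, drawn as in the plot of footprint levels. The open red points of KO replicate 2 lie to the right of the filled red points for most genes, and the KO replicates spread wider than the WT replicates.

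Individual TE values show the same spread. Gaa read 6.15 and 3.54 in the WT libraries against 7.58 and 8.89 in the KO libraries (0.81 ± 0.48, limma adjusted p = 0.845), the largest difference among the 8 genes higher without overlap. Lamp2 read 7.502 and 7.93 in the WT libraries against 9.79 and 12.3 in the KO libraries (0.51 ± 0.42, limma adjusted p = 0.886), beside RNA groups that overlapped. Lipa read 6.31 and 8.17 in the WT libraries against 11.9 and 9.94 in the KO libraries and Ctsh 7.604 and 10.5 in the WT libraries against 13.01 and 16.4 in the KO libraries, both higher in both KO libraries. Ctsz read 5.46 and 5.07 in the WT libraries against 2.97 and 3.67 in the KO libraries (-0.67 ± 0.45, limma adjusted p = 0.868), lower in both KO libraries. Gusb read 0.704 and 0.672 in the WT libraries against 0.551 and 0.241 in the KO libraries (-0.92 ± 0.71, limma adjusted p = 0.873), where 1 KO library was far below the rest. Ctsk read 10.97 and 4.62 in the WT libraries against 9.87 and 31.1 in the KO libraries. Its mean TE was 2.46-fold higher (limma adjusted p = 0.828), but the value of WT replicate 1 lay above that of KO replicate 1. None of these differences passed.

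Other genes of the lysosomal pathway gave few calls. None of the 34 tested other hydrolases, 23 other membrane proteins, 20 proton pump subunits, 18 mannose 6-phosphate sorting genes, 23 regulators or 34 autophagy genes passed for footprints. Their median log2 changes were 0.44, 0.36, 0.22, 0.32, 0.03 and 0.28 in that order, beside 0.36 over all genes. In RNA 2 of 34 other hydrolases and 1 of 20 proton pump subunits rose (against 4.2% of all genes) and 1 of 33 autophagy genes fell (against 1.53%), shares near those of all genes. The RNA of Ctss, cathepsin S of antigen-presenting cells, read 7.15 and 6.204 FPKM in the WT libraries against 21.7 and 21.5 in the KO libraries and rose 3.24-fold (1.70 ± 0.22, limma adjusted p = 0.022). Galns, a sulfatase of keratan sulfate breakdown, read 1.27 and 1.47 FPKM in the WT libraries against 4.45 and 3.47 in the KO libraries and rose 2.88-fold (1.52 ± 0.31, limma adjusted p = 0.045). Both genes had well separated groups in RNA, and neither passed for footprints. Atp6v0e2, a small membrane subunit of the pump, read 1.44 and 1.57 FPKM in the WT libraries against 5.76 and 3.88 in the KO libraries (1.65 ± 0.32, limma adjusted p = 0.043). Pink1, a kinase that marks damaged mitochondria for autophagy, read 147 and 161 FPKM in the WT libraries against 67.7 and 72.98 in the KO libraries and fell by 1.13 on the log2 scale (SE 0.20, limma adjusted p = 0.036). None of these 4 calls held throughout. When limma's variance was not allowed to depend on the level (no trend), all 4 were lost, with adjusted p of 0.0503 for Ctss, 0.059 for Galns, 0.063 for Atp6v0e2 and 0.074 for Pink1, and median-ratio scaling ended those of Galns (0.055) and Atp6v0e2 (0.0508). Leaving out 1 library at a time ended the call of Galns without KO replicate 1 (0.08) or WT replicate 1 (0.087), that of Atp6v0e2 without KO replicate 1 (0.068), and that of Pink1 without WT replicate 1 (0.148) or WT replicate 2 (0.168).

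The proton pump stood above the median of all genes in RNA. Of 20 tested subunits, 15 had RNA higher in both KO libraries (75%, against 44.2% of all genes), with a median log2 change of 0.48 beside 0.22. For TE none was higher without overlap (against 24% of all genes) and 2 were lower (against 12%), with a median of -0.20 beside 0.15. The summed RNA of the list came to 576 and 661 FPKM for the WT libraries against 1019 and 728 for the KO libraries, so KO replicate 1 was the higher. The factors that bind the E-box element are named outside the naming rule because the promoter element is theirs. Footprints of Tfeb read 41.99 and 54.5 FPKM in the WT libraries against 27.5 and 36.3 in the KO libraries (-0.58 ± 0.35, limma adjusted p = 0.419), and Mitf read 59.3 and 53.97 FPKM in the WT libraries against 23.9 and 47.03 in the KO libraries (-0.74 ± 0.41, limma adjusted p = 0.394). Both were lower in both KO libraries, as were 12.1% of all genes, without passing. Tfe3 read 16.99 and 15.2 FPKM in the WT libraries against 17.4 and 27.6 in the KO libraries (0.43 ± 0.43, limma adjusted p = 0.631). It was higher in both, as were 39.5% of all genes, with KO replicate 1 close to WT. Whether the levels of these factors bear on the lysosomal genes was not tested.

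**Figure D5:**
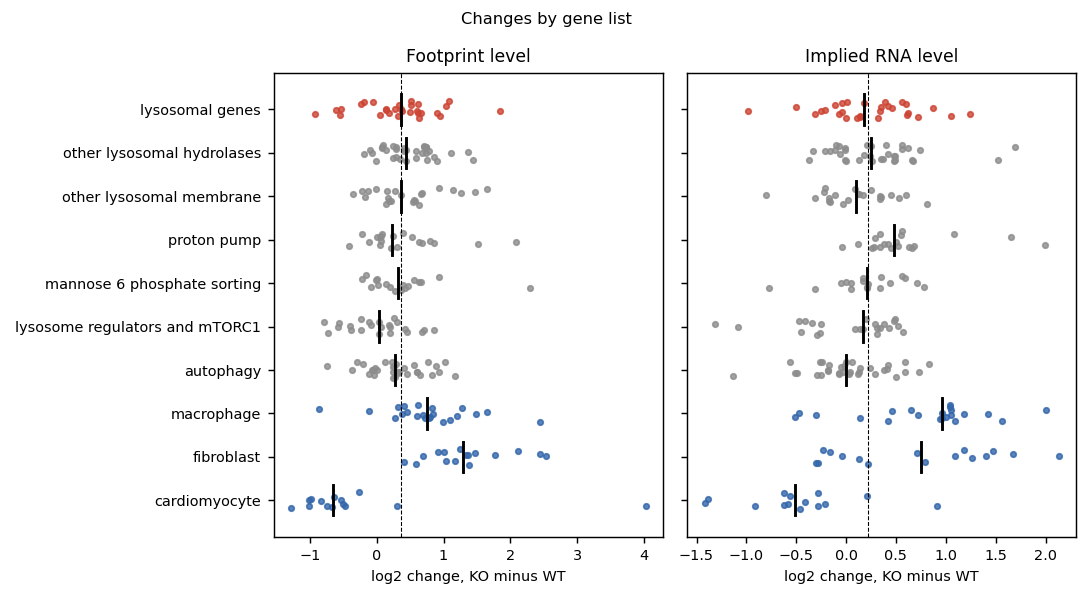
Log2 change, KO minus WT, of the tested genes of each list for footprints (left) and implied RNA (right); each point is a gene, the black bar is the list's median and the dashed line the median of all tested genes. The medians of the lysosomal genes and other hydrolases lie near the dashed line, those of the regulators (footprints) and autophagy genes (RNA) to its left and that of the proton pump (RNA) to its right; macrophage and fibroblast medians lie to its right and cardiomyocyte medians to its left.

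Markers of heart cell types were also compared. No macrophage, fibroblast, cardiomyocyte or endothelial marker passed for footprints, and no cardiomyocyte or endothelial marker passed for RNA. In whole tissue, fewer cells of a type and less RNA per cell cannot be told apart. The 22 macrophage markers summed to 807 and 1408 FPKM of footprints for the WT libraries against 1437 and 2891 for KO, and to 172 and 163 against 380.4 and 299.6 FPKM of RNA. In RNA 2 of 21 tested macrophage markers rose (Lyz2 and C1qa, against 4.2% of all genes) and 15 were higher without overlap (71.4%, against 44.2%). In footprints only 9 of the 22 were higher without overlap, a share near the 39.5% of all genes. Of the defining markers, Adgre1 (F4/80) read 43.2 and 57.4 FPKM in the WT libraries against 55.4 and 76.96 in the KO libraries and Csf1r 70.7 and 77.7 in the WT libraries against 87.2 and 174 in the KO libraries, neither past the threshold, and no marker of the list was at 0 in all libraries. The 16 fibroblast markers summed to 28511 and 23472 FPKM of footprints for the WT libraries against 60379 and 77131 for KO. Of these, 13 were higher without overlap (against 39.5% of all genes). In RNA 4 of 16 rose (Postn, Tcf21, Fn1 and Vim, against 4.2% of all genes) and 9 were higher without overlap (against 44.2%). With no trend all 6 of these RNA calls were lost (adjusted p = 0.0503 for Postn, 0.064 for Tcf21, 0.067 for Fn1, 0.068 for Lyz2, 0.089 for Vim and 0.092 for C1qa). Those of Vim and C1qa were also lost after median-ratio scaling (0.0508 and 0.058) and at 5 FPKM or more in all libraries (0.051 each). Leaving out WT replicate 2 ended the calls of Lyz2, C1qa, Fn1 and Vim, and leaving out WT replicate 1 those of C1qa, Fn1 and Vim. Pdgfra read 149 and 128 FPKM in the WT libraries against 259 and 496 in the KO libraries and Tcf21 36.1 and 27.8 in the WT libraries against 107 and 185 in the KO libraries. The 14 cardiomyocyte markers summed to 280897 and 329504 FPKM for the WT libraries against 184468 and 190717 for KO, 11 of them lower without overlap (against 12.1% of all genes), with Myh6 at 41849.6 and 49637 FPKM in the WT libraries against 23979.7 and 21994 in the KO libraries and Tnnt2 at 9162 and 9892 in the WT libraries against 5171 and 9129 in the KO libraries. Cardiac muscle markers were thus abundant in all 4 libraries. Endothelial markers were higher without overlap for 8 of 13 in footprints (against 39.5% of all genes) and 4 of 13 in RNA (against 44.2%). Of the 29 lysosomal genes, 22 had a footprint change above 0 (75.9%, against 71.1% of all genes). The other 7 were below 0. The part of any cell type in the values of the lysosomal genes was not tested.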

How the data were processed

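In all, 2 WT and 2 KO footprint libraries of heart tissue were compared. Per the submitters' processing notes, the authors' tools were STAR 2.7.4a, Bowtie 1.3.1, cutadapt 3.7, Cufflinks 2.2.1, HTSeq 0.13.5, FastQC 0.11.9 with the build GRCm38 (mm10). The sources used here do not give order, settings or strand. The deposited FPKM values are the authors' footprint levels, and the deposited TE is the authors' ratio. FPKM divided by TE came out with 6 or fewer significant digits for all 59296 quotients checked (tolerance 1e-10, relative) and was used as the implied RNA level; the RNA libraries are not described, and a TE of 0 was taken as missing. Genes with at least 1 FPKM in at least 2 libraries were tested as log2(FPKM + 1) (15031 genes), and those with FPKM and TE above 0 in all libraries as log2 RNA and log2 TE (12529 genes), with limma 3.58.1 (trend, two-sided, R 4.3.3) and Benjamini-Hochberg adjustment at 0.05 over all genes. Fold changes are on that scale, and those of footprints understate low genes. With 2 libraries a group an exact permutation test cannot go below p = 0.333. The fitting code was tested on data simulated with the noise that limma itself assumes, which says nothing of its power here. Depth is unknown, so no counting interval was given. All 29 lysosomal genes were named; of other lists, genes passing in any measure (at most 4) and the first 2 markers of each cell type list described. The members and lists were chosen with earlier results of these data known. Marker lists of smooth muscle and pericytes, endothelium, neutrophils, lymphocytes, mast cells, erythroid cells and epicardial, glial and fat cells were also followed; their median footprint changes were 0.46, 0.55, 1.27, -0.30, 0.72, -0.37 and 1.43 (log2). Of these, only Tagln (smooth muscle; footprints and RNA) and Retnlg (neutrophils; RNA) passed, both rising (the footprint call of Tagln was lost without any 1 library, after median-ratio scaling, with no filter, with no trend and at a pseudocount of 0.1, its RNA call with no trend, and the call of Retnlg without WT replicate 1 or KO replicate 1, after median-ratio scaling and with no trend).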

Additional observations from a re-analysis of the deposited data

How the results depend on the processing

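The number of lysosomal genes past the threshold stayed at 0 for TE under 11 alternatives (28 genes tested at 5 FPKM or more and at an RNA level of 1 or more, 29 otherwise), and at 0 for footprints except that Ctsk was called when small RNA genes and unnamed models were left out (1 gene) and when at least 5 FPKM was asked in all libraries (1 gene, of 28 tested). For RNA the replicate number as a block called 1 gene (Cd63). A fit without 1 library leaves 1 library in a group, so its p-values carry no scatter of that group. The block gave 0 calls for footprints and 0 for TE. Over all genes it raised the calls to 118 higher and 25 lower for footprints, 1028 and 401 for RNA, and 126 and 52 for TE. The differences between replicates correlated at -0.06, -0.22 and -0.02 between the groups for footprints, RNA and TE, and the labels do not say that a number marks a shared litter or day. A crossed pairing for RNA, chosen after seeing the data, called 6 of the 29 genes, 5 higher and 1 lower, and 2412 and 829 over all genes. The median log2 change was -0.0091 (footprints) and -0.034 (RNA) after median-ratio scaling, which moved the median of all genes likewise. Leaving out 1 library gave medians of 0.25 to 0.62 for footprints, 0.14 to 0.32 for RNA and -0.23 to 0.37 for TE; the cause was not tested. Among all genes, leaving out small RNA genes and unnamed models gave 171 higher and 52 lower footprint calls, at least 5 FPKM 182 and 42, no filter 7 and 1, no trend 23 and 13, a pseudocount of 0.1 23 and 11, while leaving out any 1 library gave 0 footprint calls. RNA calls over all genes were 50 and 17 without the trend, 274 and 124 at 5 FPKM or more, 2632 and 1110 without KO replicate 2 and 891 and 269 without WT replicate 2. TE calls were 23 and 10 without WT replicate 1 and 6 and 2 without WT replicate 2. Over 1010 values of single genes under alternatives, 57 changed sign, all without a call on either side, and 16 passed only under the alternative. Promoter matches stayed at 8 genes in the bases before the start site only.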
